A study of Homo sapiens with 3 samples.

Results

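The SLC2A genes encode the GLUT proteins, the carriers that let glucose and related sugars cross membranes down their gradient. Of this family, 10 genes were followed, SLC2A1, SLC2A3, SLC2A4, SLC2A6, SLC2A8, SLC2A10, SLC2A11, SLC2A12, SLC2A13 and SLC2A14, out of 25006 genes that the arrays name through a RefSeq transcript. They were taken by gene symbol, not by their values, and every probe with one of these symbols was used, 15 probes in all. The gene expression of 2 clones of the human glioblastoma line U87 was compared on 3 Agilent 2-color arrays, 1 for each culture condition. U87WT 5 cells (U87WT from here on) carry GFP-IGF1R, the wild-type receptor for insulin-like growth factor 1 (IGF1) fused to a fluorescent protein, which the labels describe as nuclear. U87Mut 5 cells (U87Mut) carry GFP-IGF1R1025x-1100x-1120x, a mutant receptor described as non-nuclear. Cells of both clones were kept 24 h in serum-free medium, or 24 h with 50 nM IGF1, or 24 h with 50 nM IGF1 and OSI906, an inhibitor of the kinase of the IGF1 and insulin receptors. The titles give 0.5 μM OSI906, whereas the medium field of the same array reads 500 μM. On every array Cy5 marked the RNA of U87WT and Cy3 that of U87Mut, with no dye swap. A dye bias of a probe therefore cannot be told apart from a difference between the clones. This holds for a single ratio, for the mean ratio over the 3 arrays and for its test. Each clone is 1 stably transfected line selected with G418, no parental U87 sample was hybridized, and no condition was repeated.

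Glucose enters most cells through GLUT1, the product of SLC2A1, or through the high-affinity carrier GLUT3, the product of SLC2A3, and both are known in gliomas. GLUT4, the product of SLC2A4, is the carrier that insulin moves from vesicles to the surface of muscle and fat cells. Growth factor signaling can act on glucose entry at the level of transcripts, of vesicle traffic and of the first step of glycolysis, and arrays read only the first of these.

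Values are given on 2 scales. A level is the normalized log2 intensity of 1 probe in 1 channel, and a ratio is the log2 of U87WT over U87Mut on 1 array. Since probes differ in how well they bind, the level of a probe was compared only with the same probe in another sample. A probe counted as measured where the scanner software marked it well above background, and a ratio or a difference was called past the limit where it exceeded 0.5 in size. Spots in 10 copies of 300 probes gave a median SD of the ratio between 0.0455 and 0.051 within an array, over the 277 bright ones, but the pooled SD was 0.18 on the IGF1 array, where 1 probe reached 2.84, against 0.052 and 0.0562 on the serum-free and OSI906 arrays. Between the serum-free and the OSI906 array, single ratios of 27680 probes well above background in all 6 channels varied with an SD of 0.144, and between either of these and the IGF1 array with an SD of 0.18 and 0.182. These last SDs hold the response to the treatments as well as error.

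The probe of IGF1R, the transfected gene, had ratios of 0.07, 0.23 and 0.09 in serum-free medium, IGF1 and IGF1 with OSI906, and its mean of 0.13 did not pass limma's test over the 3 arrays (adjusted p = 0.207). Where this probe lies in the transcript, and so whether it reads the transfected sequence, could not be checked. Of 8 markers of the U87 line, VIM, NES, CD44, FN1, TNC and, close to the floor, OLIG2 were well above background in all 6 channels, and GFAP and SOX2 in none. Of 7 markers of other cell types with a named probe, 5 were well above background in all 6 channels by their brightest probe. These were CDH5, EPCAM, KRT18, PTPRC and RBFOX3, at levels from 6.03 for CDH5 to 9.81 for RBFOX3. CDH5 and PTPRC lay near the floor, at 6.03 to 6.20 and 6.09 to 6.35. The second RBFOX3 probe was well above background in 0 of 6 channels, as were some further PTPRC probes. The part of these markers in the results was not tested.

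Of the 10 transporter genes, 7 were well above background in all 6 channels by their brightest probe: SLC2A1, SLC2A3, SLC2A6, SLC2A8, SLC2A11, SLC2A13 and SLC2A14. SLC2A4 was well above background in 0 of 6 channels, SLC2A10 in 2 and SLC2A12, a carrier related to SLC2A10, in 5. The levels of SLC2A4 stayed between 5.80 and 5.88 and those of SLC2A10 between 5.91 and 6.06, close to the floor of the scale in both clones. No transporter spot was saturated or marked as not uniform. Among the transporter genes, then, the insulin-responsive carrier SLC2A4 was not measurable here, and no ratio is read for it.

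**Figure D1:**
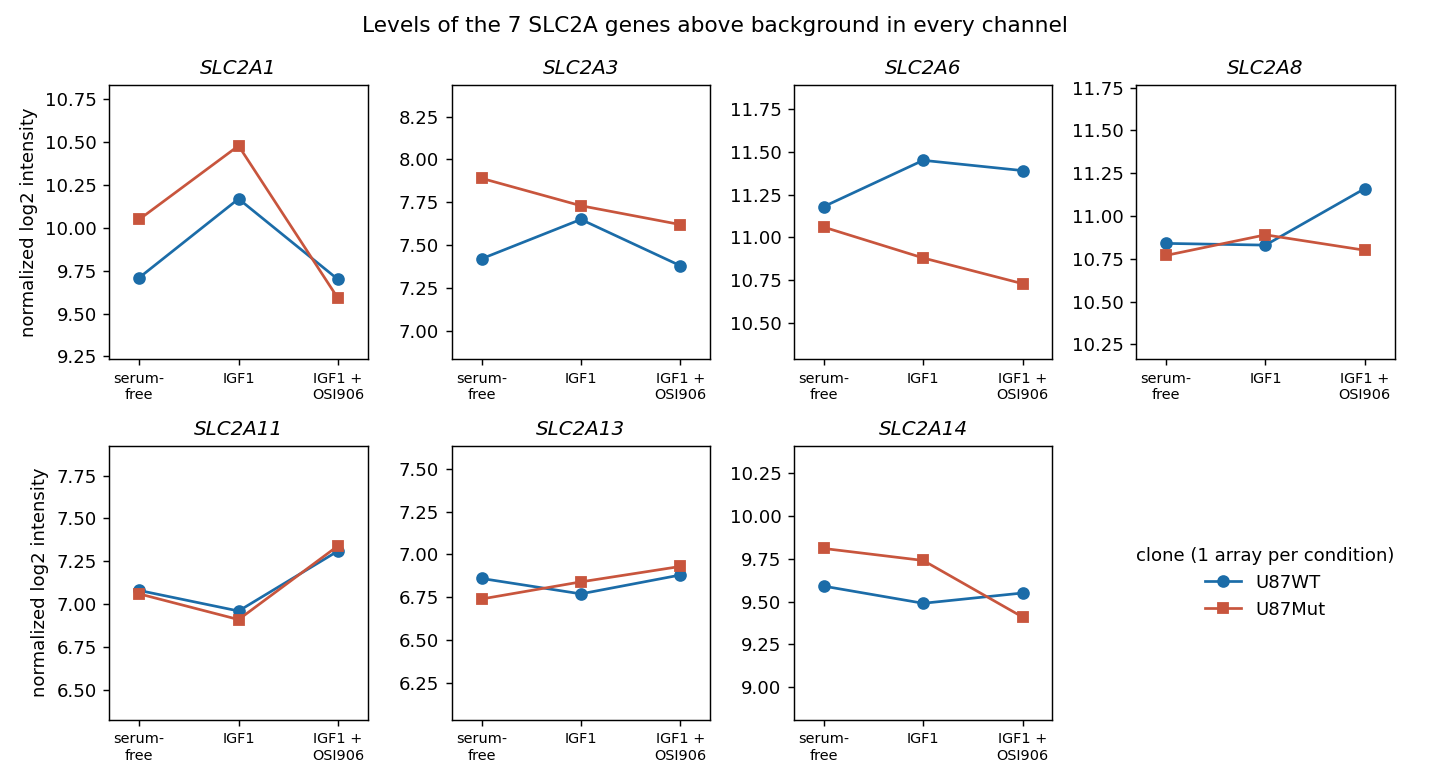
Normalized log2 intensity (vertical axis, each panel spanning an equal range) of the brightest probe of 7 transporter genes in the 3 culture conditions, with U87WT as circles and U87Mut as squares, 1 array per condition and no error bar. SLC2A1 was highest in IGF1 in both clones (10.17 and 10.48), SLC2A6 was higher in U87WT in every condition, and SLC2A13 stayed between 6.74 and 6.93.

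SLC2A1, the carrier of basal glucose uptake, gave the widest movement of the family. Its 1 probe (A_23_P571) had levels of 9.71 in serum-free medium, 10.17 in IGF1 and 9.70 in IGF1 with OSI906 in U87WT cells. In U87Mut cells the levels were 10.05, 10.48 and 9.59. In each clone the IGF1 sample was therefore the highest of the 3, and the sample with the inhibitor was at or below the serum-free one. The IGF1 sample exceeded the serum-free sample by 0.46 in U87WT (1.38-fold) and by 0.43 in U87Mut (1.35-fold), both short of the limit of 0.5. Under 7 alternatives of the processing these differences ran from 0.31 to 0.82 in U87WT and from 0.07 to 0.57 in U87Mut, and with median in place of loess normalization, at 0.82 and 0.07, they were no longer alike. For comparison, the 5th and 95th percentiles of all measured probes were -0.34 and 0.36 in U87WT and -0.31 and 0.27 in U87Mut. The difference of IGF1 with OSI906 from IGF1 alone was -0.47 in U87WT and -0.89 in U87Mut, the latter to 0.54 of the IGF1 intensity.

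The sequence before the start of SLC2A1 is shown because this gene moved the most, beside that of SLC2A6, the gene with the largest clone ratio. Both are the 250 bases before the annotated start in RefSeq (GRCh38.p14), on the minus strand, at chr1:42958869-42959118 for SLC2A1 and chr9:133479100-133479349 for SLC2A6. Capitals mark the GC box GGGCGG, a site of Sp1-type factors, searched on both strands.
SLC2A1: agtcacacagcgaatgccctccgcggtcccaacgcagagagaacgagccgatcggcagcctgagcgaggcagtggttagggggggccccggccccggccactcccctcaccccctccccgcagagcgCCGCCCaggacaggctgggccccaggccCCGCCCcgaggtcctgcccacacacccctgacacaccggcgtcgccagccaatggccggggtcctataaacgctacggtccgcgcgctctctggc
SLC2A6: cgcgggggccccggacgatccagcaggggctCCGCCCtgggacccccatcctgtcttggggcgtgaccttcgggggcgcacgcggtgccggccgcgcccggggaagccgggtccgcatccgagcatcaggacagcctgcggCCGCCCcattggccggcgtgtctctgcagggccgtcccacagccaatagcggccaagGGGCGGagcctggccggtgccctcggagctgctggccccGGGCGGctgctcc
There were 2 matches before SLC2A1 and 4 before SLC2A6, and 6 of the 8 transporter genes with an entry held at least 1, against 42.6% of 35116 windows of this length. The core of the hypoxia response element (ACGTG or GCGTG) was in the windows of 5 of 8 (43.2% of all windows), the E-box CACGTG, which contains ACGTG, in 1 (6.34%), and the FOXO core GTAAACA in 0 (2.98%). SLC2A3 and SLC2A4 had no entry. The counts are of genes, whereas the percentages are of single windows. SLC2A11 had several windows, which gave the same result for each motif. The GC content was 72.4% in the window of SLC2A1 and 76.8% in that of SLC2A6, and the comparison with all windows was not matched for it. These matches are descriptions of letters, not of bound sites.

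The ratio of SLC2A1 was -0.35 in serum-free medium, -0.32 in IGF1 and 0.11 in IGF1 with OSI906. U87Mut was thus the higher clone without the inhibitor, and the clones were nearly level with it. The change of the ratio from serum-free medium to IGF1 was 0.03, against an SD of 0.255 for this change over the 27680 probes, and that from IGF1 to IGF1 with OSI906 was 0.42, against an SD of 0.257. Over the 3 arrays the mean was -0.18 (95% interval -0.45 to 0.08), and limma gave an adjusted p of 0.41. The ratio after IGF1 was -0.61 when the background was fitted on all spots, among them those marked as not uniform, -0.68 in the deposited log2 ratios and 0.13 with median normalization. With no background correction or an offset of 20 it was -0.34.

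SLC2A3, which encodes the high-affinity carrier GLUT3, was lower in U87WT on every array by both of its probes, but by little in IGF1. The brightest (A_24_P81900) had levels of 7.42, 7.65 and 7.38 in U87WT and of 7.89, 7.73 and 7.62 in U87Mut, in serum-free medium, IGF1 and IGF1 with OSI906. Its ratios were -0.47, -0.09 and -0.25, and those of the second probe (A_23_P139669) -0.33, -0.02 and -0.17. All U87WT levels but the IGF1 one lay below all U87Mut levels. The mean was -0.27 (95% interval -0.47 to -0.06) for the brightest probe and -0.18 for the second, with adjusted p of 0.142 and 0.24 by limma. The serum-free ratio of the brightest probe ran from -0.68 to -0.40 under 8 alternatives. Without the IGF1 array a probe of SLC2A3 passed the test (adjusted p = 0.0401). With median normalization, which set the median ratio of bright probes to 0.20 on the IGF1 array, the ratio of the brightest probe after IGF1 turned to 0.16.

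SLC2A14 lies next to SLC2A3 on chromosome 12, with 3 pseudogene entries between them, and is its near copy, so the probes of either may read both transcripts. Its probe (A_32_P47754) had levels of 9.59, 9.49 and 9.55 in U87WT and of 9.81, 9.74 and 9.41 in U87Mut. The ratios of -0.22, -0.24 and 0.15 had the signs of those of SLC2A1, with U87WT the lower clone without the inhibitor and the higher one with it. IGF1 with OSI906 differed from IGF1 alone by -0.33 in U87Mut and by 0.06 in U87WT. The ratio of SLC2A3, in contrast, was below 0 on all 3 arrays and closest to 0 in IGF1. Like that of SLC2A1, the IGF1 ratio of SLC2A14 was lower with all spots in the background fit, at -0.53, and turned to 0.15 with median normalization.

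SLC2A6, which encodes GLUT6, a carrier of intracellular membranes, was the 1 transporter gene past the limit between the clones. Its brightest probe (A_33_P3398912) had levels of 11.18, 11.45 and 11.39 in U87WT and of 11.06, 10.88 and 10.73 in U87Mut. All U87WT levels lay above all U87Mut levels, and the ratio was 0.12 in serum-free medium, 0.57 in IGF1 and 0.66 in IGF1 with OSI906. The second probe (A_33_P3337044), for the same transcript, had levels of 10.63, 11.15 and 11.06 in U87WT and of 10.75, 10.87 and 10.74 in U87Mut, and ratios of -0.12, 0.29 and 0.32. The probes of this gene thus differed by 0.24, 0.28 and 0.34 on the 3 arrays, and both gave a ratio higher by 0.45 or 0.40 in IGF1 than in serum-free medium.

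The mean of the brightest probe of SLC2A6 was 0.45 (95% interval 0.15 to 0.75), a 1.37-fold difference, and that of the second probe 0.16 (-0.09 to 0.42), with adjusted p of 0.102 and 0.448 by limma. A probe of SLC2A6 passed the test with a normexp offset of 20 (adjusted p = 0.037), among probes well above background everywhere (0.0392) and without the serum-free array (0.0412). With the background fitted on all spots the IGF1 ratio was 0.31. By the mean of its probes SLC2A6 was not past the limit on any array. In U87WT cells the IGF1 level exceeded the serum-free level by 0.27 at the brightest probe and by 0.52 at the second, whereas in U87Mut cells the difference was -0.18 and 0.12.

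SLC2A8, which encodes another intracellular carrier, GLUT8, had ratios of 0.06, -0.06 and 0.36 by its brightest probe (A_23_P252783) and of 0.03, -0.13 and 0.14 by the second (A_33_P3418158). The brightest probe stood at 10.84, 10.83 and 11.16 in U87WT and at 10.77, 10.89 and 10.80 in U87Mut. The U87WT sample with OSI906 was the highest of the 6, by 0.33 over U87WT cells in IGF1. At the second probe the same difference was 0.50 in U87WT and 0.23 in U87Mut.

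The ratios of SLC2A10, SLC2A11, SLC2A12 and SLC2A13 lay between -0.13 and 0.11 on every array. SLC2A11, a carrier of glucose and fructose, had ratios of 0.02, 0.05 and -0.03 by its brightest probe (A_33_P3268649) and of 0.00, 0.09 and -0.07 by the second (A_23_P404565). With the inhibitor its level was higher in both clones, short of the limit: the brightest probe stood 0.35 higher in U87WT and 0.43 higher in U87Mut with OSI906 than with IGF1 alone, whereas the second probe differed by 0.02 and 0.19. A further bright probe (A_33_P6549164), for an Ensembl transcript that could not be named through RefSeq, is listed by the study under SLC2A11 and gave ratios of -0.09, 0.20 and 0.26. SLC2A13, a carrier of myo-inositol, had ratios of 0.11, -0.07 and -0.05 by its brightest probe (A_22_P00024298), and its second probe (A_24_P924816) was well above background in 0 of 6 channels. The ratios of SLC2A12 (A_33_P3331125) and SLC2A10 (A_24_P271323), near the floor, lay between -0.13 and 0.02.

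**Figure D2:**
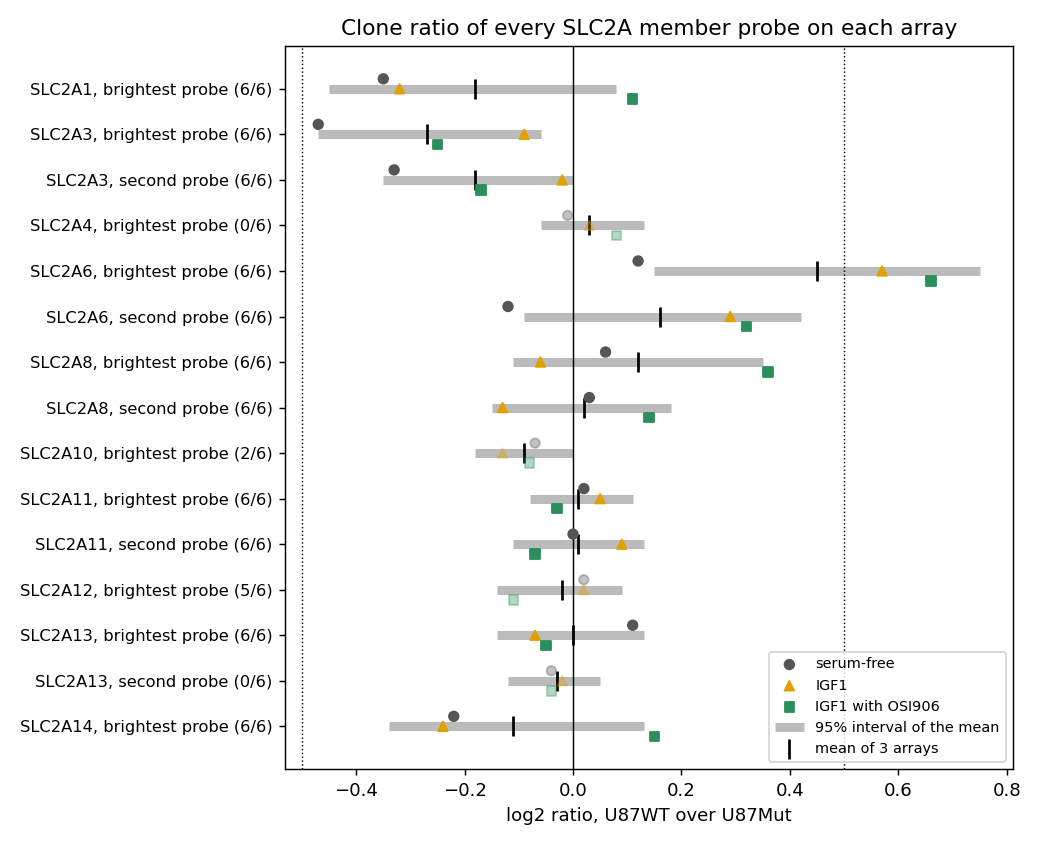
Log2 ratio of U87WT over U87Mut (horizontal axis) of all 15 transporter probes on the serum-free (circles), IGF1 (triangles) and OSI906 (squares) arrays, with the mean (tick) and its 95% limma interval (gray bar) over the 3 arrays. Numbers in brackets count the channels of 6 in which the probe was well above background, and paler symbols mark probes with fewer than 6. Dotted lines mark the limit of 0.5, which the brightest probe of SLC2A6 passed at 0.57 and 0.66.

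Taking the family as a group, the clones differed past the limit in 0 of 8 measured transporter genes in serum-free medium, in 1 of 7 in IGF1 and in 1 of 8 in IGF1 with OSI906, SLC2A6 both times. Among all measured probes the limit was passed by 8.65%, 8.71% and 8.05% on these arrays. The median ratio of the measured transporter genes was 0.02, -0.07 and 0.04, against -0.01, 0.00 and -0.01 over all measured probes. Over the 3 arrays limma (Benjamini-Hochberg) called 0 of 15 transporter probes, against 8.43% of 58174 probes called. An unadjusted p under 0.05 was given to 3 of the 15 and to 12290 of all probes (21.1%). The other SLC2A genes added little: SLC2A2 was well above background in 0 of 6 channels and SLC2A7 in 2. SLC2A5, the fructose carrier, had ratios of -0.16, 0.21 and 0.17. SLC2A9, the urate carrier, was near the floor, at levels of 6.04 to 6.13 in U87WT and 5.86 to 5.91 in U87Mut, was well above background in 3 of 6 channels, and its mean ratio of 0.22 passed limma's test (adjusted p = 0.0388).

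**Figure D3:**
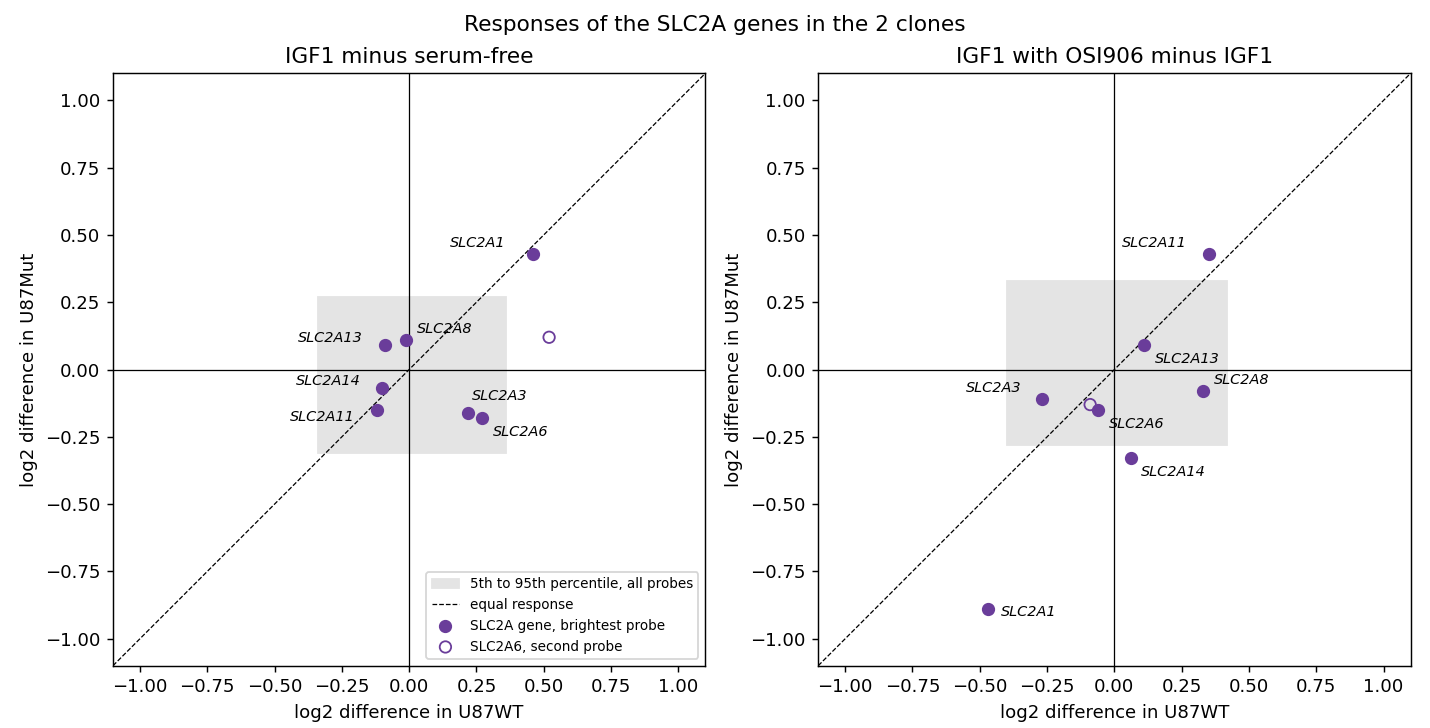
Log2 difference between arrays in U87WT (horizontal axis) and in U87Mut (vertical axis), for IGF1 minus serum-free medium (left) and IGF1 with OSI906 minus IGF1 (right), with 7 transporter genes as filled points, the second SLC2A6 probe as an open point, and a gray box over the 5th to 95th percentile of all measured probes. SLC2A1 lies outside the box in both panels, at 0.46 and 0.43 for IGF1 and at -0.47 and -0.89 for OSI906.

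The responses within each clone were read in the same way. The difference between IGF1 and serum-free medium was past the limit in 0 of 8 measured transporter genes in U87WT (4.05% of measured probes) and in 0 of 7 in U87Mut (2.02%). That between IGF1 with OSI906 and IGF1 was past it in 0 of 8 in U87WT (6.06%) and in 1 of 7 in U87Mut (2.40%), the 1 being SLC2A1 at -0.89. This difference of SLC2A1 in U87Mut lay between -1.02 and -0.70 under 7 alternatives of the processing, past the limit under all 7. With 1 array per condition these differences carry no test.

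The genes whose 6 levels moved most like those of SLC2A1 were DRD4, AKR1C1 and POPDC2, with root mean square differences of 0.112, 0.116 and 0.119 log2 units after each gene was centered on its own mean, out of 15345 genes compared. AKR1C1, an aldo-keto reductase, stood at 10.25, 10.60 and 10.03 in U87WT and at 10.30, 10.67 and 9.94 in U87Mut. DRD4, a dopamine receptor, stood at 7.93, 8.63 and 8.17 in U87WT and at 8.48, 8.69 and 8.02 in U87Mut, and POPDC2, a membrane protein of muscle, at 9.52, 10.30 and 9.74 and at 10.08, 10.43 and 9.77. The 6 levels come from 3 arrays that each hold both clones, and the likeness is a description.

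Around the carriers, the genes that move, hold or trap glucose were read from a list of 32 genes, 28 of them measured in all 6 channels. Of these 28, 5 were past the limit between the clones in serum-free medium, 7 in IGF1 and 4 in IGF1 with OSI906, where 8.65%, 8.71% and 8.05% of all measured probes were. Of the 43 probes of the list, limma called 6, beside 8.43% of all probes. In U87WT cells 4 of these were higher, SLC5A3, SORT1, TBC1D4 and HIF1A, and 2 were lower, MYC and RAB8A.

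TXNIP, the arrestin-like protein that takes GLUT1 and GLUT4 off the cell surface, differed the most between conditions. It stood at 11.06, 8.78 and 11.52 in U87WT and at 10.67, 10.20 and 11.33 in U87Mut. The difference of IGF1 from serum-free medium was -2.28 in U87WT and -0.46 in U87Mut, and that of IGF1 with OSI906 from IGF1 alone was 2.74 and 1.12. Under the alternatives the first difference ran from -2.55 to -1.90 in U87WT and from -0.79 to -0.25 in U87Mut. In both clones the IGF1 sample was the lowest of the 3 and the sample with OSI906 the highest. The ratio was 0.39, -1.43 and 0.19, and its mean had an adjusted p of 0.753 by limma, in which the swing between conditions counts as error. The IGF1 ratio lay between -1.61 and -1.04 under 8 alternatives. ARRDC4, its closest relative, had ratios of -0.06, -0.63 and -0.29. Within each clone, SLC2A1 was highest where TXNIP was lowest. Between the clones in IGF1, both genes were lower in U87WT, TXNIP at 8.78 against 10.20 and SLC2A1 at 10.17 against 10.48. A link between the 2 genes was not tested.

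The 250 bases before the upstream of the 2 annotated starts of TXNIP (GRCh38.p14, minus strand, chr1:145996580-145996829) are shown because this gene gave the largest response of the list, with the FOXO core GTAAACA in capitals. FOXO factors are known to be held out of the nucleus by signaling from insulin and IGF1 receptors.
TXNIP: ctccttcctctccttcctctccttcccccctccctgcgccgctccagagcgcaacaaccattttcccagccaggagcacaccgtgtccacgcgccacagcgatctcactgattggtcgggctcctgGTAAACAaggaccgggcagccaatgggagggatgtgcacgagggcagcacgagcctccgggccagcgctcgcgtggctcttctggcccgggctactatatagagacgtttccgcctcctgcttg
It held 1 match, the window before the other start (chr1:145995745-145995994) held 0, and 0 of the 8 transporter genes held any, against 2.98% of all windows. The hypoxia response core had 2 matches before the upstream start and 1 before the other, and 43.2% of all windows held it. The E-box, searched only as CACGTG, and the GC box, searched only as GGGCGG, had 0 in either window. Other forms of these sites were not searched. These matches are descriptions of letters, not of bound sites, and their part in the response was not tested.

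The hexokinases trap glucose in the cell as its phosphate. HK1, the broadly expressed form, had ratios of -0.08, 0.04 and 0.07. HK2, the hexokinase of growing and tumor cells, had ratios of 0.50, -0.11 and 0.46, with levels of 11.83, 11.58 and 12.46 in U87WT and of 11.33, 11.69 and 11.99 in U87Mut. The serum-free ratio of HK2 was 0.18 by the mean of its probes. In U87WT cells HK2 was higher by 0.88 with OSI906 than with IGF1 alone, and in U87Mut cells by 0.30.

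SLC5A3, the sodium-coupled carrier of myo-inositol, was the carrier with the largest difference between the clones, at ratios of 1.26, 1.27 and 1.05 (mean 1.19, 95% interval 1.04 to 1.35, adjusted p = 0.00356 by limma). Its levels were 12.13, 11.66 and 11.93 in U87WT and 10.86, 10.39 and 10.89 in U87Mut. Both clones thus had their lowest level in IGF1. MYC, a factor known to act on SLC2A1, was lower in U87WT at ratios of -1.27, -1.26 and -1.09 (adjusted p = 0.00319). HIF1A, the oxygen-sensing factor that also acts on SLC2A1, had ratios of 0.44, 0.40 and 0.41 by its brightest probe (adjusted p = 0.00719), and its second probe did not pass the test (adjusted p = 0.258). The IGF1 ratio of HIF1A turned to -0.05 with the background fitted on all spots and to -0.11 in the deposited table. SORT1, the sortilin of GLUT4 vesicles, had ratios of 0.58, 0.80 and 0.75 (adjusted p = 0.00666), of which the IGF1 one was 0.20 with the background fitted on all spots and 0.19 in the deposited table. GIPC1, a scaffold that binds GLUT1, had ratios of 0.23, 0.74 and 0.44 (adjusted p = 0.071).

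**Figure D4:**
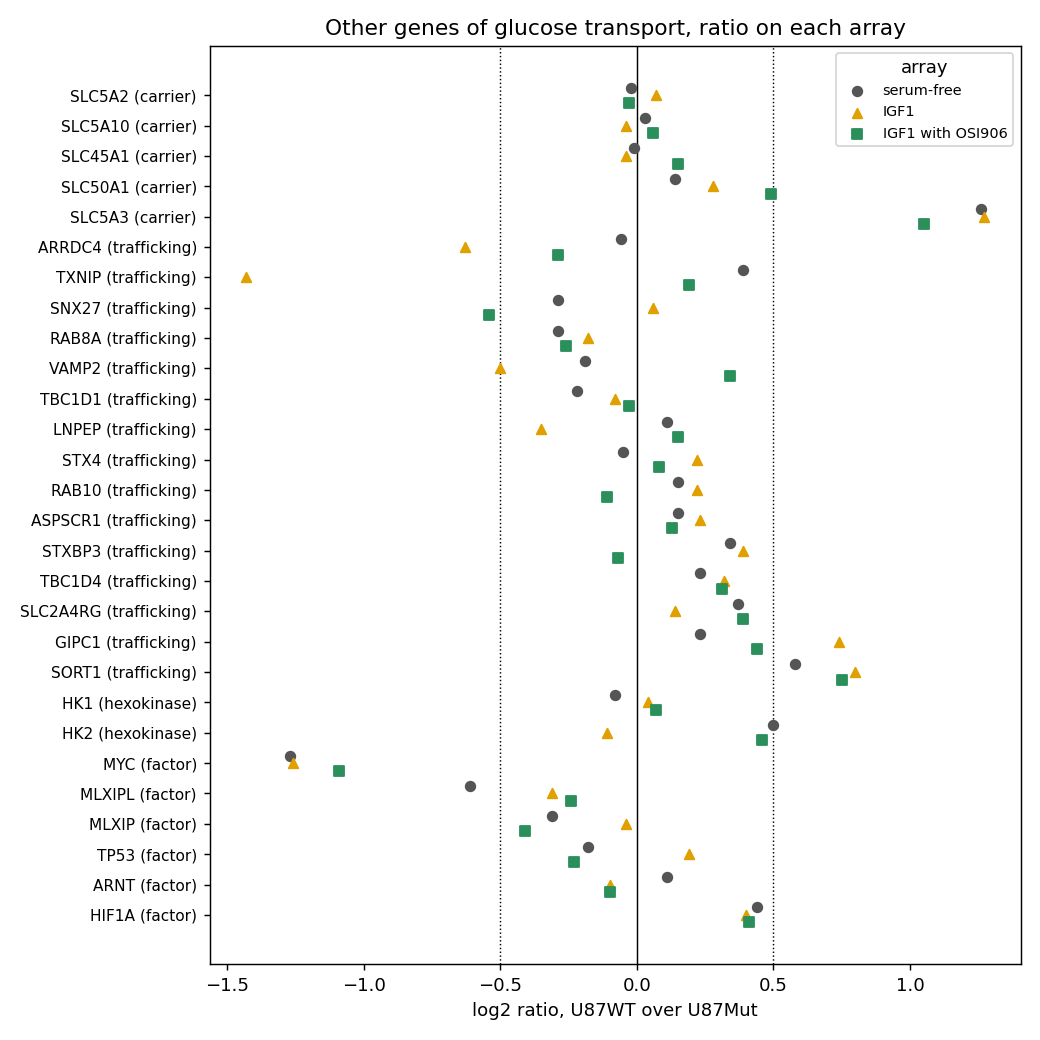
Log2 ratio of U87WT over U87Mut (horizontal axis) on the serum-free (circles), IGF1 (triangles) and OSI906 (squares) arrays for 28 genes of other sugar carriers, glucose transporter trafficking, hexokinases and transcription factors, each by its brightest probe. SLC5A3 and MYC lie near 1.2 and -1.2 on every array, whereas TXNIP leaves the others on the IGF1 array alone, at -1.43.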

How the data were processed

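RNA of both clones was hybridized to 3 2-color arrays, 1 per condition. Per the file headers the authors deposited intensity values of the Agilent Feature Extraction software: median spot and background brightness, marks for outliers and saturation, and processed intensities with a log10 ratio. The processed intensities were used only as an alternative, with log2 ratios computed from them and not from the log10 ratio. The authors also deposited log2 ratios, which from the values equal normexp (offset 20, all spots), loess and the mean of a probe's spots within 1e-04 for 58341 of 58341 probes.

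Here, normexp (offset 50) was applied to median signals and fitted without 384, 572 and 5 spots marked as not uniform, and normalized by loess and Aquantile (limma 3.58.1, R 4.3.3). Outlier spots (95, 117 and 95) and 2075 control spots were left out, and spots of each of 58201 probes were averaged. Of the 58201 probes, 36770 had a RefSeq transcript, and 34892 of these were given a gene name by it (GRCh38.p14). Shares over all measured probes include unnamed probes. A gene was counted by its brightest probe. The clone difference was tested with limma (lmFit, eBayes, intercept only, Benjamini-Hochberg at 0.05), the 3 conditions standing in for replicates, so p-values also hold treatment responses. The limma step was tested on simulated ratios with a known shift, equal on all arrays, and no treatment response. The normexp fit was tested on a simulated background and signal.

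The transporter genes and the other lists were chosen with earlier results of these data known. All transporter probes are named, the other SLC2A genes by values, and of the list of 32 genes the 5 with the largest mean ratio, TXNIP, HK1 and HK2; ARRDC4, TBC1D4 and RAB8A were named after their values were seen. The 3 genes most like SLC2A1 had the smallest root mean square difference. Alternatives were other background corrections and normalizations, scanner and deposited values, filters, the mean of a gene's probes, a limit of 0.5 SD and leaving out each array.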

Additional observations from a re-analysis of the deposited data

Results flagged for a closer look

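Among the 7 transporter genes measured in all 6 channels, 2 were flagged because the clones moved in opposite directions with IGF1, SLC2A3 and SLC2A6. SLC2A8 (-0.01 in U87WT and 0.11 in U87Mut) and SLC2A13 (-0.09 and 0.09) also had opposite signs, at smaller sizes, and were not flagged. Over all measured probes, the 5th and 95th percentiles of the difference between IGF1 and serum-free medium were -0.34 and 0.36 in U87WT and -0.31 and 0.27 in U87Mut. The differences of SLC2A3 and SLC2A6 by their brightest probes lay within these percentiles in both clones. That of the second SLC2A6 probe in U87WT lay above them. SLC2A3 was 0.22 higher in U87WT in IGF1 than in serum-free medium, and in U87Mut the difference was -0.16. SLC2A6 was 0.27 higher in U87WT, and in U87Mut the difference was -0.18, but its second probe was higher with IGF1 in both clones, by 0.52 in U87WT and 0.12 in U87Mut. With 1 array per condition the difference between the clones was not tested.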

How the results depend on the processing

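The 1 array per condition and the lack of a dye swap limit every value. In serum-free medium the number of transporter genes past the limit between the clones went from 0 to 1 with a normexp offset of 20, no background correction, scanner processed signals or the deposited table, to 3 with median normalization and to 4 with a limit of 0.5 SD. In IGF1 it went from 1 to 2 with all spots in the background fit or the deposited table, to 0 with the mean of a gene's probes and to 3 with the limit of 0.5 SD. The 2 genes were not SLC2A6, which fell to 0.31 and 0.29 under these settings. They were SLC2A1 (-0.61 and -0.68) and SLC2A14 (-0.53 and -0.61), both lower in U87WT. In IGF1 with OSI906 it went from 1 to 2 with scanner signals, to 0 with the mean of the probes and to 6 with the limit of 0.5 SD. For IGF1 minus serum-free medium the count in U87WT went from 0 to 2 with median normalization and to 1 with scanner signals, and in U87Mut from 0 to 1 with all spots in the fit or median normalization. For IGF1 with OSI906 minus IGF1 the count in U87WT went from 0 to 1 with median normalization or scanner signals, and in U87Mut from 1 to 2 with the offset of 20, no background correction or scanner signals. Limma called 4905 probes, 669 with all spots in the fit, 785 in the deposited table, 0 with median normalization or scanner signals (5125 and 9947 at an unadjusted p under 0.05), and between 232 and 6033 when an array was left out, the fewest without the array of IGF1 with OSI906 and 1159 without the serum-free array. Of the 15 transporter probes it called 0, 1 with the offset of 20 and 1 among probes well above background everywhere, and between 0 and 1 when an array was left out. Of 780 single values of transporter and pathway genes under the alternatives, 625 moved by less than 0.144, the SD of a single ratio between the serum-free and OSI906 arrays, and 155 by more, and none past the limit changed sign. The cause was not tested. Each array holds both clones, so the test of the ratios over the 3 arrays is already paired within arrays, and no further block was fitted.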
